A study of Mus musculus with 27 samples.

Results

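The later step of induced neuron (iN) reprogramming, from day 2 to day 4, was followed in cultures that carried the Per2-/- genotype label. Mouse embryonic fibroblasts (MEFs) of this label were compared in 3 libraries from day 4 and 3 libraries from day 2, which are 6 of the 27 bulk RNA-seq libraries of the series. These 6 were taken by genotype label and day alone, without any measured value. The remaining libraries came from WT and Per1-/- cells on days 0, 2 and 4 and from the same Per2-/- label on day 0, with 3 libraries in each of 9 groups. Per2-/- embryos came from the B6.129-Per2tm1Drw line, which carries a targeted mutation of Per2 in the germline. Several embryos were pooled for each dish, so that no library stands for 1 animal, and the labels call the 3 libraries of a group biological replicates. All groups carried lentivirus with doxycycline-controlled neuronal transcription factors, Brn2 (Pou3f2) and Myt1l among them, plus the reverse transactivator M2rtTA. Day 0 was the time at which doxycycline was added with a change to serum-free medium, so day 2 and day 4 had both received doxycycline and day 0 had not. The labels call all of them induced neurons, although they are whole dishes that were not sorted.

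Brn2 is a POU factor of neural progenitors and neurons, and Myt1l represses genes of other lineages. In the conversion of fibroblasts, genes of early neuronal commitment come first, and genes for the neuronal cytoskeleton, secretory granules and synapses follow. Fibroblast cultures from embryos also hold tissue macrophages, and cells that become neurons leave the cell cycle. Per2, the gene named by the label, encodes a repressor of the circadian clock that acts on the CLOCK and BMAL1 (Arntl) activator.

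Expression was measured as FPKM, the number of fragments of a gene scaled by its length and by the depth of the library. Between 17741879 and 21208125 fragments counted on genes lay behind each of the 6 libraries. The level of Per2 did not check the label. Per2 was measured at 2.77, 2.97 and 2.75 FPKM on day 2 and 2.64, 2.54 and 3.3 FPKM on day 4. The mean in WT on day 2 was 1.57 ± 0.20 (SD, n = 3), and each of the 6 libraries labelled Per2-/- was above it. The methods of the study check the label on protein by western blotting, which was not analysed here. A gene-level value does not show whether part of a transcript is missing, so it does not speak against the label. Of the cell type markers, those of fibroblasts, macrophages and neurons were present. The FPKM summed over 7 lymphoid, 8 neutrophil and mast cell and 7 erythroid markers was at most 0.736, 1.77 and 0.423 in the 6 libraries, and the hemoglobin genes of the erythroid list (Hba-a1, Hba-a2, Hbb-bs and Hbb-bt) were at 0. Since these are bulk samples, fewer cells of a type and less RNA per cell cannot be told apart. Replicate 2 stood apart on both days, with the most Pou3f2 and the lowest macrophage signal of its day. With both libraries of replicate 2 left out, a choice made after seeing the data, 335 genes were called in place of 606 by the test described next.

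Of 14932 genes tested, 346 rose and 260 fell from day 2 to day 4 (2.32% and 1.74% of the genes tested). Calls required an adjusted p of 0.05 or less in limma and a change of 0.58 or more on the log2 scale in either direction, and together they made up 4.06% of genes. Fold changes are given below as log2 values with their standard error, all on the log2(FPKM + 0.1) scale, which understates the change of genes near 0. The median change of the risen genes was 1.25 and that of the fallen genes was -0.87, and 544 of the 606 called genes were protein coding. Of the called genes 57.1% had risen, and with values rescaled to TPM the split turned to 238 risen and 393 fallen genes (37.7% risen). The median change over all genes was -0.02, and -0.10 with TPM, which divides by the summed FPKM of a library. Gm23935, a gene of 57 bases chosen after its values were seen, was at 21942 ± 8665 FPKM on day 2 and 35952 ± 12922 on day 4 (mean ± SD, n = 3). Its groups overlapped, and its part in the turned split was not tested. For scale, 2792 genes rose (18.7%) and 2508 fell (16.8%) in the same cultures from day 0 to day 2, in all 35.5% of genes, a comparison that shares the day 2 libraries. On day 4 all libraries lay above all day 2 libraries for 13.3% of genes and below them for 15.6%. An unadjusted p under 0.05 in limma was reached by 3380 of the 14932 genes, to be set beside such counts below. The number of calls depended on single libraries. Without the day 4 library of replicate 3 only 188 genes passed, without day 4 replicate 1 there were 300, without day 2 replicates 1, 2 and 3 there were 336, 348 and 293, and without day 4 replicate 2 there were 717. A core of 145 genes, 82 risen and 63 fallen, passed with each of the 6 libraries left out in turn. Of the genes named below, Atp6v0d2, Bmp7, Cacng4, Ccng1, Celf3, Chga, Chgb, Chmp4c, Chrnb1, Col25a1, Eda2r, Elavl3, Hes6, Ier2, Ina, Kif20a, Kif4, Kif5a, Lpl, Mapk8ip2, Mapt, Mmp24, Nr4a3, Nrxn2, Pdgfc, Pltp, Plxnd1, Scg2, Scg3, Snap25, Sox4, Srrm4, Sstr1, Stmn3, Stmn4, Timp3, Vgf and mt-Tv are among them, and each other called gene lost its call in at least 1 of these runs.

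**Figure D1:**
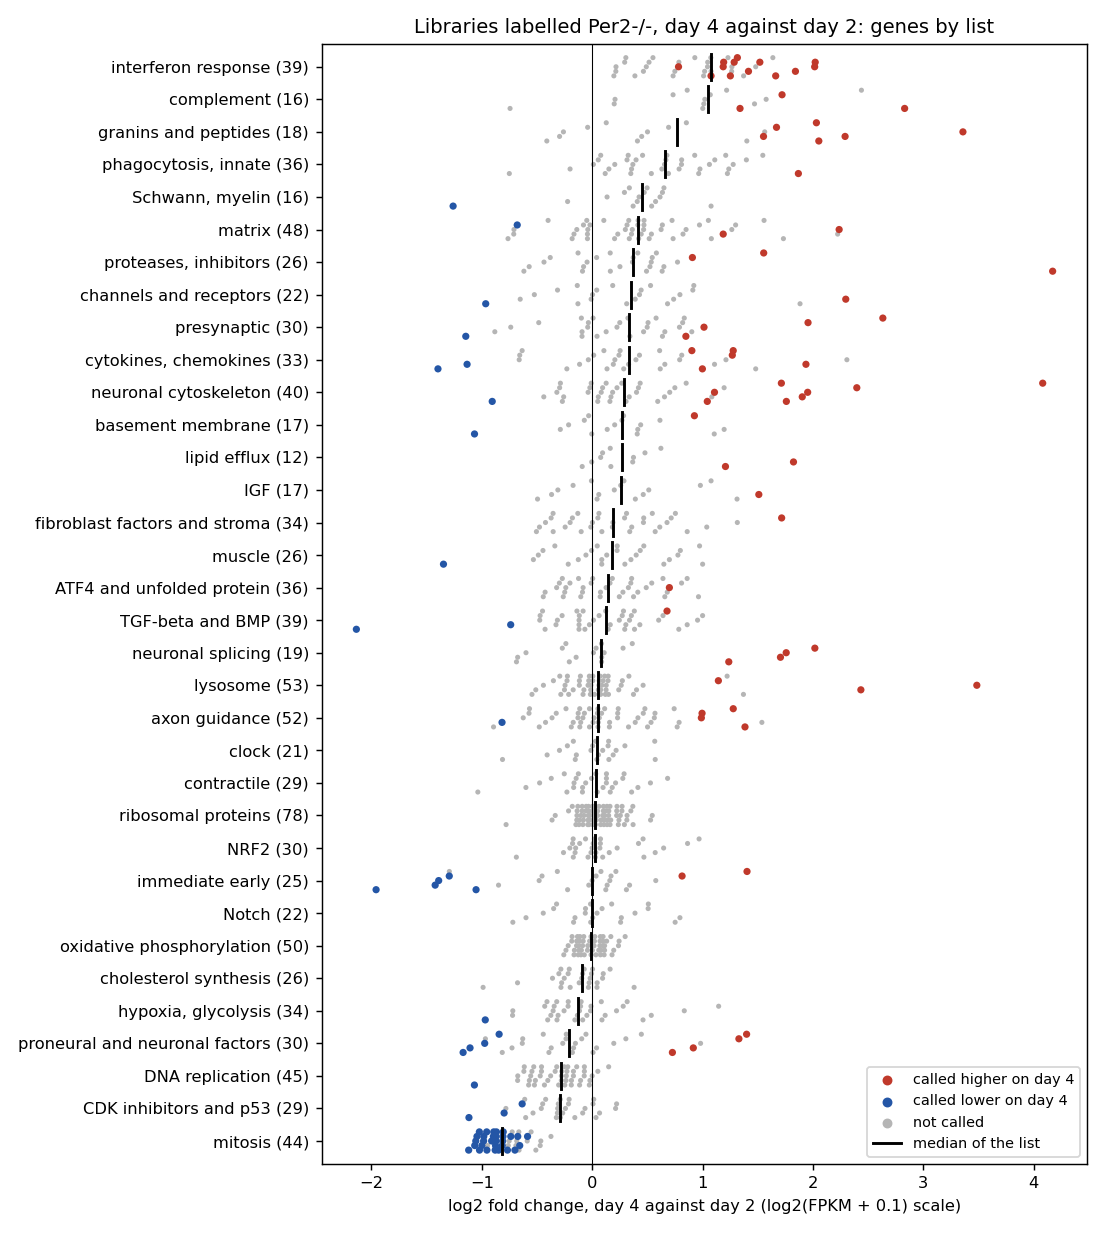
Log2 fold change of day 4 against day 2 (x axis, log2(FPKM + 0.1) scale) for the tested genes of 34 lists (y axis, number of tested genes in parentheses), ordered by the median of the list, in the libraries labelled Per2-/-. Each point is 1 gene, red or blue where it was called and grey where it was not, and the black bar is the median, which ranged from -0.81 for mitosis to 1.07 for the interferon response.

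Of 15 tested neuron markers 8 rose and none fell, against 2.32% risen over all genes, with a median of 1.11. Their summed level, most of which was Tubb3, was 135, 150 and 139 FPKM on day 2 and 158, 251 and 146 FPKM on day 4, so the groups overlapped.

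Granin and neuropeptide genes held the highest share of risen members among the neuronal lists other than the markers. The proteins of this list load and process hormones in dense-core vesicles. Of 18 tested genes, 6 rose and none fell, with a median of 0.77 against -0.02 over all tested genes. The risen share was 33.3%, against 2.32% over all genes. Scg2, a granin that is cut into secretoneurin (GRCm38 chr1:79434669-79440120, minus strand), was at 0.261, 0.265 and 0.507 FPKM on day 2 and 3.14, 5.94 and 4.32 FPKM on day 4. All day 4 libraries were far above those of day 2, a log2 fold change of 3.36 ± 0.44 (adjusted p = 2.57e-04). On day 0 the same gene stood at 0.203, 0.211 and 0.901 FPKM (-0.08 ± 0.44 from day 0 to day 2). Scg3, which brings granins to the vesicle membrane, went from 0.885, 1.56 and 0.876 to 4.31, 7.8 and 5.25 FPKM (2.29 ± 0.35, adjusted p = 9.85e-04). Chgb and Chga, the chromogranins, rose by 2.05 ± 0.36 and 2.03 ± 0.32. The groups did not overlap for any of these 4 genes. Chgb was measured at 9.86, 24.4 and 11.1 FPKM on day 4, highest in replicate 2. Vgf, a neurotrophin-induced peptide precursor, and Pcsk2, a prohormone convertase, completed the risen members (1.67 ± 0.32 and 1.55 ± 0.46), although Pcsk2 passed in none of the runs that left out a library. Gal, Pam, Cpe and Nnat did not pass, with values between -0.41 and 0.13.

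Among 40 tested genes of the neuronal cytoskeleton, 8 rose and 1 fell, and the median was 0.29. These shares were 20% and 2.5%, against 2.32% risen and 1.74% fallen over all genes. Stmn4, a microtubule-destabilizing stathmin of neurons, was near 0 on day 2 and was measured at 0.264, 0 and 0.0799 FPKM on day 2 and 3.75, 3.76 and 2.04 FPKM on day 4. That was the largest change of the list (4.08 ± 0.77, adjusted p = 0.0043). Mapt, which encodes the axonal microtubule protein tau, went from 0.208, 0.313 and 0.156 to 1.42, 2.15 and 1.29 FPKM (2.40 ± 0.29, adjusted p = 1.90e-04). Stmn3 and the intermediate filament gene Ina rose by 1.95 ± 0.27 and 1.90 ± 0.39. The other called members were Mapk8ip2, Kif5a, Dcx and Kif5c, of which Dcx, a microtubule protein of migrating neurons, stood at 1.41, 1.86 and 1.31 FPKM on day 2 and 3.6, 3.76 and 2.83 FPKM on day 4 (1.11 ± 0.30, adjusted p = 0.034). The call of Dcx was held in 1 of the 6 runs that left out a library, whereas those of Mapt, Stmn3, Stmn4 and Ina were held in all 6. Dpysl3, a collapsin response mediator, fell from 146, 194 and 141 to 81.1, 119.8 and 62.5 FPKM (-0.91 ± 0.25).

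Tubb3 and Map2, whose proteins are commonly stained to count iNs, were not called. Tubb3, the βIII tubulin gene, was at 91.7, 101 and 92.5 FPKM on day 2 and 87.9, 156 and 76.3 FPKM on day 4, and the groups overlapped (0.09 ± 0.23, adjusted p = 0.85). It had already changed by 2.24 ± 0.23 from day 0 to day 2. Map2, a dendritic microtubule protein, was at 5.84, 6.85 and 5.39 FPKM on day 2 and 10.7, 10.3 and 9.41 FPKM on day 4; each day 4 library was above each day 2 library, yet the change of 0.75 ± 0.35 did not pass (adjusted p = 0.2). Stmn2 did not pass either (0.59 ± 0.52, adjusted p = 0.54).

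Of 19 tested splicing and RNA-binding regulators of neurons, 4 rose and none fell, while the median was 0.08. That is 21.1% risen, against 2.32% over all genes. Elavl3, an RNA-binding protein of the neuronal Hu family, was at 1.45, 1.56 and 1.27 FPKM on day 2 and 5.1, 8.48 and 5.14 FPKM on day 4 (2.02 ± 0.27, adjusted p = 2.57e-04). Celf3 and Srrm4, the latter an activator of neuronal microexons, rose by 1.76 ± 0.22 and 1.71 ± 0.35, and Elavl4 rose by 1.24 ± 0.36. Rest, the repressor that keeps neuronal genes silent outside the nervous system, was measured at 13.3, 12.7 and 12.5 FPKM on day 2 and 14, 11.4 and 14.2 FPKM on day 4, with overlapping groups (0.04 ± 0.11, adjusted p = 0.89).

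Of 30 tested presynaptic genes, 4 rose and 1 fell (13.3% and 3.33%, against 2.32% and 1.74% over all genes, median 0.33). Snap25, a membrane-fusion SNARE protein of synaptic vesicle release (GRCm38 chr2:136713453-136782428, plus strand), was at 0.216, 0.257 and 0.173 FPKM on day 2 and 1.51, 2.65 and 1.56 FPKM on day 4, a change of 2.63 ± 0.28 (adjusted p = 3.38e-05). Nrxn2, an adhesion receptor of the presynaptic membrane, went from 0.655, 0.873 and 0.54 to 2.36, 4.58 and 2.27 FPKM (1.96 ± 0.31). Bsn, a scaffold of the active zone, and Syn1, a vesicle phosphoprotein, rose by 1.01 ± 0.26 and 0.85 ± 0.23. Doc2b, a calcium sensor of release, fell (-1.15 ± 0.28). Of 22 tested channel and receptor genes, Cacng4 rose (2.30 ± 0.42) and Kcnc4 fell (-0.96 ± 0.24). Each was 4.55% of its list, against 2.32% risen and 1.74% fallen over all genes. In the 52 tested axon guidance genes, 4 rose (Ntn1, Efnb3, Plxnd1 and Sema3b) and 1 fell (Plxna2), with a median of 0.05. Risen and fallen members made up 7.69% and 1.92% of this list. Ntn1, which encodes netrin-1, was at 2.26, 3.27 and 4.37 FPKM on day 2 and 6.9, 7.73 and 11.4 FPKM on day 4 (1.38 ± 0.31, adjusted p = 0.013).

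**Figure D2:**
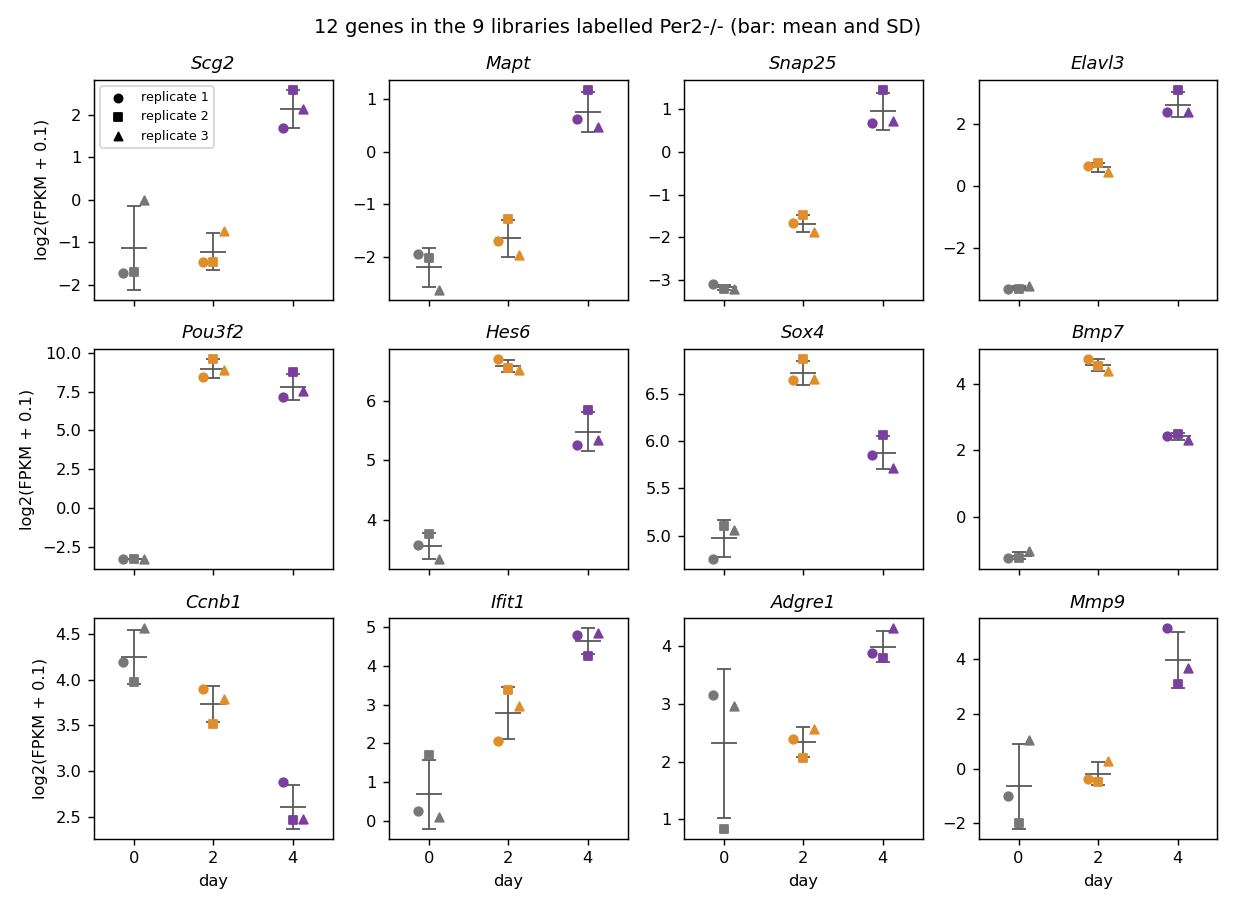
Level of 12 genes in the 9 libraries labelled Per2-/- on days 0, 2 and 4 (x axis), as log2(FPKM + 0.1) on y axes that differ between panels. Symbols mark replicates 1, 2 and 3, and bars give the mean and SD of 3 libraries. Scg2, Mapt and Snap25 rose after day 2, whereas Hes6, Sox4 and Bmp7 were highest on day 2 and lower on day 4.

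Among the transduced factors, Pou3f2 fell and Myt1l was not called. Reads from a viral copy and from the mouse gene cannot be told apart in these values. Pou3f2 was at 340.5, 769.9 and 484 FPKM on day 2 and 141, 429 and 184 FPKM on day 4, after it was listed at 0 in the 3 libraries of day 0, and fell from day 2 to day 4 (-1.17 ± 0.32, adjusted p = 0.031) although the groups overlapped, since day 4 replicate 2 stood above day 2 replicate 1. Replicate 2 held the most Pou3f2 of its day on both days. Myt1l stayed near 1 FPKM (0.976, 1 and 0.794 FPKM on day 2 and 0.797, 1.52 and 0.694 FPKM on day 4; 0.04 ± 0.31, adjusted p = 0.96).

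Of the 30 tested proneural and neuronal transcription factors, 4 rose and 4 fell (median -0.21). Each direction held 13.3% of the list, against 2.32% risen and 1.74% fallen over all genes. Hes6, a target of proneural factors, had reached 104, 94.1 and 91.6 FPKM on day 2 and fell to 38.3, 57.8 and 40.6 FPKM on day 4 (-1.11 ± 0.16, adjusted p = 6.09e-04). Sox4, which supports early neuronal gene expression, was at 99.9, 117 and 101 FPKM on day 2 and 57.8, 66.7 and 52.6 FPKM on day 4 (-0.84 ± 0.11, adjusted p = 2.01e-04). Zbtb18, a zinc finger repressor, fell as well (-0.97 ± 0.21). The risen members were Myt1, a paralog of Myt1l that was at 1.83, 1.9 and 1.18 FPKM on day 2 and 3.93, 6.62 and 3.23 FPKM on day 4 (1.40 ± 0.31), the zinc finger repressor gene Scrt1 (1.33 ± 0.31), Ebf1 (0.92 ± 0.21) and Id4, an inhibitor of basic helix-loop-helix factors (0.73 ± 0.20). Of 22 tested Notch genes limma and voom called none. An unadjusted p under 0.05 in limma was found for 2 of the 22, against 3380 of 14932 over all genes. Dll3, a Notch ligand that acts within the cell, was at 65.3, 118 and 76.3 FPKM on day 2 and 38.6, 98.5 and 44.3 FPKM on day 4 (-0.60 ± 0.29, adjusted p = 0.23).

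Among the 34 lists, mitosis held the most fallen genes. Of 44 tested genes, 30 fell and none rose, against 1.74% fallen over all genes, and the median change was -0.81. In 41 of the 44 all day 4 libraries lay below all day 2 libraries, against 15.6% of all genes. Ccnb1, the mitotic cyclin that activates CDK1, was at 14.8, 11.3 and 13.7 FPKM on day 2 and 7.3, 5.45 and 5.47 FPKM on day 4 (-1.12 ± 0.24, adjusted p = 0.0086). Kif20a and Kif4, kinesins of the central spindle, and Ect2, which starts the cleavage furrow, fell to a like degree (-1.06 ± 0.22, -1.04 ± 0.21 and -1.05 ± 0.26). Day 2 replicate 2 was the lowest of its day for all 4. Mki67, the proliferation marker Ki-67, was at 27.9, 18.7 and 23.8 FPKM on day 2 and 18, 10.7 and 15.2 FPKM on day 4; its groups did not overlap but it did not pass (-0.69 ± 0.23, adjusted p = 0.075). The number of fallen members was 22 without day 2 replicate 2 and 20 without day 4 replicate 1, but 4 without day 2 replicate 1 or day 2 replicate 3, 7 without day 4 replicate 2 and 5 without day 4 replicate 3. It was 7 without both libraries of replicate 2. The median stayed between -0.95 and -0.65 in these runs.

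Of 45 tested DNA replication genes 17 lay below without overlap, against 15.6% of all genes, with a median of -0.28. Only 1 was called, or 2.22% against 1.74% fallen over all genes. That gene was Rrm2, the regulated subunit of ribonucleotide reductase, at 34.6, 24.9 and 26.7 FPKM on day 2 and 14.8, 11.5 and 14.5 FPKM on day 4 (-1.07 ± 0.28, adjusted p = 0.028). Pcna, the sliding clamp of DNA polymerase, was chosen after its values were seen and stood at 41, 33.3 and 37 FPKM on day 2 and 34.5, 31.4 and 36.6 FPKM on day 4 (-0.11 ± 0.17). The median of 29 tested genes for inhibitors of the cell cycle and targets of p53 was -0.29. Of the 29, 3 fell (10.3%, against 1.74% over all genes) and none rose. These were Eda2r, a p53-induced death receptor at 19.5, 19.4 and 18.3 FPKM on day 2 and 9.81, 9.56 and 7.11 FPKM on day 4 (-1.12 ± 0.20, adjusted p = 0.0033), Ccng1 (-0.80 ± 0.16) and Plk2 (-0.63 ± 0.16). Cdkn1a, the p53 target p21, was also chosen after its values were seen and did not pass (-0.45 ± 0.15, adjusted p = 0.08).

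**Figure D3:**
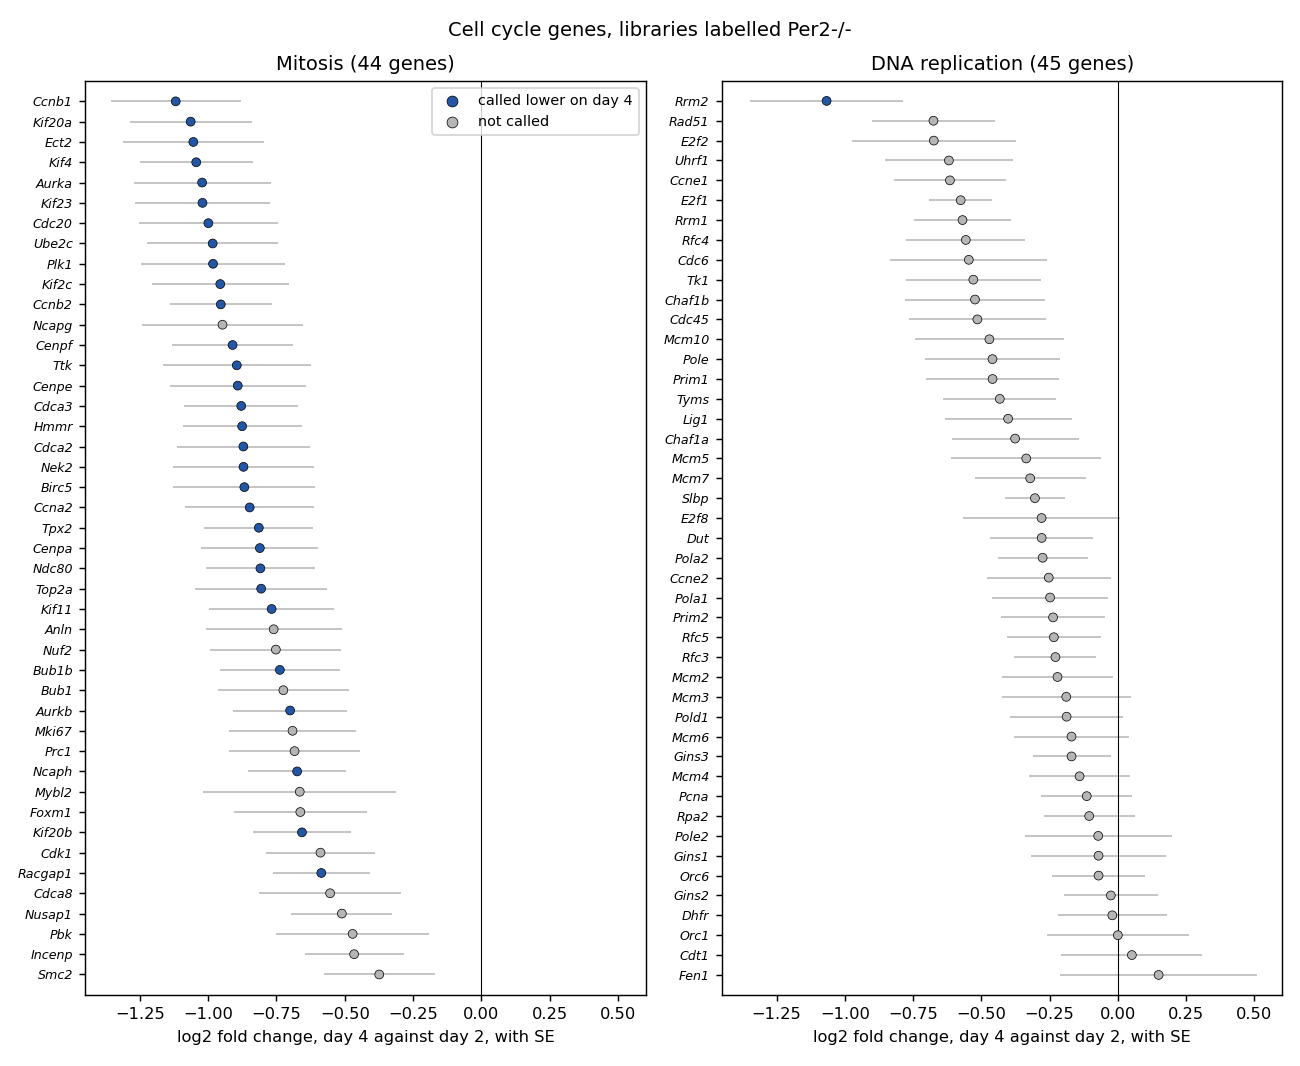
Log2 fold change of day 4 against day 2 with its standard error (x axis) for each tested gene (y axis) of mitosis, left, and DNA replication, right, in the libraries labelled Per2-/-. Blue points passed the test. The mitosis genes lie between -1.12 and -0.37 and the replication genes between -1.07 and 0.15.

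Many promoters of mitosis genes are known to hold the cell cycle genes homology region (CHR), which binds repressor complexes in resting cells. It was searched as TTTGAA on both strands in windows of 300 bases around annotated starts (RefSeq, GRCm38.p6). It was in the window of 27 of 36 mitosis genes with an entry, or 75.0%, in 6 of 37 replication genes, or 16.2%, and in 14.1% of all tested genes with an entry. Of the 27 mitosis genes that held it 20 were called, and of the 9 that did not 5 were called. The 3 called genes with the largest change that have a single window and hold the letters in the 130 bases before the start were Cdc20, the activator of the anaphase-promoting complex, Ube2c, its ubiquitin-conjugating enzyme, and Kif2c, a kinesin that removes tubulin at centromeres. Their sequences are shown because the list with the most fallen genes shares these letters. The capitals mark the CHR letters on either strand.
Cdc20 (GRCm38.p6 chr4:118437344-118437473, minus strand): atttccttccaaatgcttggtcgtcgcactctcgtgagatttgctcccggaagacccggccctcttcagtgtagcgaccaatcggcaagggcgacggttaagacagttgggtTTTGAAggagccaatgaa
Ube2c (GRCm38.p6 chr2:164769799-164769928, plus strand): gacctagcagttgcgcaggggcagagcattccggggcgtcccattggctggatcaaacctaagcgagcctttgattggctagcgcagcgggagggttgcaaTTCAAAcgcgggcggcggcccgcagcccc
Kif2c (GRCm38.p6 chr4:117178773-117178902, minus strand): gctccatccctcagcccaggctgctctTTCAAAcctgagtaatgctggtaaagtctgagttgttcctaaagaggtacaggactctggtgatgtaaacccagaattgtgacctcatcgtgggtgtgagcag
Cdc20 was at 42.4, 23 and 30.8 FPKM on day 2 and 16.6, 13.8 and 16.3 FPKM on day 4, so the day 4 libraries were all lower (-0.9995 ± 0.25). Ube2c and Kif2c changed by -0.98 ± 0.24 and -0.96 ± 0.25. Ccnb1, the member with the largest fall, did not hold these letters in its window. A match is a stretch of letters only, and binding was not measured.

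Immediate early genes were divided. These genes respond to serum, stress and neuronal activity within minutes. Of 25 tested genes 5 fell and 2 rose, and the median was 0 to the second decimal. The shares were 20% fallen and 8% risen, against 1.74% and 2.32% over all genes. Egr1 was at 38.3, 32 and 29.4 FPKM on day 2 and 9.14, 11.3 and 5.75 FPKM on day 4 (-1.96 ± 0.52, adjusted p = 0.028). Ier2 went from 37.9, 37.7 and 37.8 to 16.8, 13.9 and 15.5 FPKM, with 3 day 2 libraries that were nearly equal (-1.29 ± 0.27, adjusted p = 0.007). Nr4a3, an orphan nuclear receptor, and the AP-1 genes Fosb and Junb fell as well (-1.42 ± 0.28, -1.39 ± 0.40 and -1.05 ± 0.27). Npas4, a factor induced by neuronal activity, was low and rose from 0.108, 0.0939 and 0.156 to 0.507, 0.306 and 0.674 FPKM (1.40 ± 0.37, adjusted p = 0.027), and Klf4 rose by 0.81 ± 0.21. Only Ier2 and Nr4a3 held their call in all 6 runs that left out a library.

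Of the interferon response genes many were higher on day 4. Of 39 tested genes 13 rose and none fell, against 2.32% risen over all genes, and the median was 1.07. In 29 of the 39 all day 4 libraries were above all day 2 libraries, against 13.3% of all genes. Ifit3, whose product joins a complex on viral RNA, was at 3.21, 5.53 and 2.49 FPKM on day 2 and 12.5, 12.2 and 20.4 FPKM on day 4 (2.02 ± 0.42, adjusted p = 0.0082), highest in day 4 replicate 3. Ifit1, which binds viral RNA itself, was at 4.05, 10.3 and 7.65 FPKM on day 2 and 27.6, 18.9 and 29 FPKM on day 4 (1.84 ± 0.47, adjusted p = 0.025). The GTPase genes Iigp1 and Ifi47 rose by 2.02 ± 0.61 and 1.66 ± 0.36. Because Ifit and Oas genes have close relatives, their reads may be split among them. Stat2, which carries the signal of type I interferon, rose to 18.4, 14.9 and 21.9 FPKM (1.08 ± 0.29). Ifnb1, the interferon beta gene, had a value above 0 in only 1 of the 6 libraries (0.0673 FPKM, day 2 replicate 1) and was not tested. Stat2 and Ifnb1 were chosen after their values were seen. The count of risen members was 1 without day 4 replicate 3, 2 without day 2 replicate 1, 5 without day 2 replicate 3 and 7 without day 4 replicate 1, and the median stayed between 0.84 and 1.27 in the runs that left out 1 library. Without both libraries of replicate 2 the count was 9 and the median 1.33.

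The interferon-stimulated response element (ISRE) is the site bound by the factors that type I interferon activates. It was searched as GAAA, any 2 bases and GAAA again on both strands in the same windows. The letters were in the window of 19 of 28 interferon genes with an entry, or 67.9%, and in 3.57% of all tested genes with an entry. Of the 19 genes that held it 5 were called and of the 9 that did not 2 were called, with medians of 1.07 and 1.05. The 3 called genes with the largest change that have a single window and the letters in the 130 bases before the start are shown, so that the element can be read beside the values, with the ISRE in capitals on either strand.
Ifit3 (GRCm38.p6 chr19:34583399-34583528, plus strand): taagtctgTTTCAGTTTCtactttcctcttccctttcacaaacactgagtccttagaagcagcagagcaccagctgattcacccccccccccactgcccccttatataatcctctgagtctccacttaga
Ifit1 (GRCm38.p6 chr19:34640759-34640888, plus strand): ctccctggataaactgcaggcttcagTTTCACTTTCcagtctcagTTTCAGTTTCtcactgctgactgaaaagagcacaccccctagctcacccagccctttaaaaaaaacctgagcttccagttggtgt
Bst2 (GRCm38.p6 chr8:71537473-71537602, minus strand): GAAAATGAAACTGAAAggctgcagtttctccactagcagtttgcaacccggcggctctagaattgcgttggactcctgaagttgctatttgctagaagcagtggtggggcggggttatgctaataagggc
Ifit1 held 2 separate matches, Bst2 2 that overlap and Ifit3 1. Bst2, which encodes tetherin, a protein that holds budding virus at the cell surface, rose from 40.2, 60.3 and 58.2 to 74.6, 77.6 and 124 FPKM (0.78 ± 0.22, adjusted p = 0.038).

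Macrophage markers had higher values on day 4, although 1 gene alone passed. The FPKM summed over 30 markers was 445, 238 and 488 on day 2 and 742, 600.4 and 1007 on day 4, so the groups did not overlap. Of 29 tested markers 23 lay above without overlap, against 13.3% of all genes, with a median of 1.00. Only 1 of the 29 was called, or 3.45% against 2.32% risen over all genes. That gene was Adgre1, the F4/80 antigen, at 5.16, 4.06 and 5.83 FPKM on day 2 and 14.5, 13.8 and 19.6 FPKM on day 4 (1.65 ± 0.49, adjusted p = 0.048); it lost its call in each of the 6 runs without a library. Csf1r, the receptor for colony stimulating factor 1, was at 12.9, 7.49 and 11.5 FPKM on day 2 and 25.7, 18.6 and 22.5 FPKM on day 4 (1.09 ± 0.53, adjusted p = 0.22), and Itgam, which encodes CD11b, was at 1.21, 0.664 and 1.38 FPKM on day 2 and 1.54, 1.15 and 1.76 FPKM on day 4 (0.46 ± 0.52). The part that the macrophage signal plays in the interferon, complement and lysosome values was not tested.

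Of 16 tested complement genes 3 rose and none fell, against 2.32% risen over all genes. There were 12 above without overlap, against 13.3% of all genes (median 1.04). Cd55, which protects cells from complement, was at 7.19, 7.49 and 9.39 FPKM on day 2 and 45.4, 15 and 27.3 FPKM on day 4 (1.72 ± 0.36, adjusted p = 0.008). C3, the central complement protein, was at 0.206, 0.569 and 0.655 FPKM on day 2 and 1.78, 1.85 and 15 FPKM on day 4, far higher in replicate 3 than in the others of day 4 (2.83 ± 0.75, adjusted p = 0.028). Without that library the change was 1.84 and did not pass. Cfp, which encodes properdin, rose by 1.34 ± 0.36. The call of Cd55 was lost without day 4 replicate 1, the library with its highest level. Of 36 tested phagocytosis genes 1 rose, or 2.78% against 2.32% over all genes, with a median of 0.66. It was Ncf4, a subunit of the NADPH oxidase (1.87 ± 0.53). Among 33 tested genes of a list of inflammatory cytokines, chemokines and receptors 5 rose and 2 fell. Those were 15.2% and 6.06% of the list, against 2.32% and 1.74% over all genes. Ccl9, Cxcl16 and Il33 rose, and so did the receptor genes Tlr2 and Tlr4. Ccl9 was at 2.9, 1.84 and 1.88 FPKM on day 2 and 13, 5.59 and 8.54 FPKM on day 4 (1.94 ± 0.51). Ptgs2, the inducible cyclooxygenase, and Lif fell (-1.40 ± 0.39 and -1.13 ± 0.32), after Ptgs2 had gone from 137, 64.6 and 95.5 FPKM on day 0 to 4.15, 1.46 and 2.41 FPKM on day 2. Tnf stood at 1.08, 0.595 and 0.654 FPKM on day 2 and 0.985, 0.873 and 0.889 FPKM on day 4 (0.25 ± 0.61, adjusted p = 0.85).

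Of 53 tested lysosomal genes 3 rose (5.66%, against 2.32% over all genes) and none fell, and the median was 0.06. The 3 were Atp6v0d2, a subunit of the proton pump at 0.149, 0.113 and 0.169 FPKM on day 2 and 5.62, 1.32 and 2.37 FPKM on day 4 (3.48 ± 0.59, adjusted p = 0.002), Acp5, tartrate-resistant acid phosphatase at 0.697, 0.606 and 0.654 FPKM on day 2 and 7.27, 3.24 and 2.62 FPKM on day 4 (2.43 ± 0.56), and Ctsk, the collagen-cleaving cathepsin K at 18.9, 24.9 and 22 FPKM on day 2 and 60.1, 40.8 and 45.9 FPKM on day 4 (1.14 ± 0.26). Ctsk had stood at 27, 51.6 and 37.2 FPKM on day 0 and fell to day 2 (-0.77 ± 0.26), so its day 4 values overlapped those of day 0. All 3 are known from osteoclasts, cells of the macrophage lineage that resorb bone. Day 4 replicate 1 was the highest in each, and without it Acp5 and Ctsk lost their call and Atp6v0d2 kept it. Mmp9, a gelatinase made by macrophages and osteoclasts (GRCm38 chr2:164940780-164955850, plus strand), was at 0.671, 0.609 and 1.13 FPKM on day 2 and 35, 8.52 and 12.8 FPKM on day 4, again highest in day 4 replicate 1 (4.17 ± 0.97, adjusted p = 0.016). Its call was lost without day 4 replicate 1, day 4 replicate 3 or day 2 replicate 2. In the list of proteases and their inhibitors, Mmp24 and Timp3 also rose (1.55 ± 0.32 and 0.91 ± 0.16), and none of 26 fell. The risen share of this list was 11.5%, against 2.32% over all genes.

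**Figure D4:**
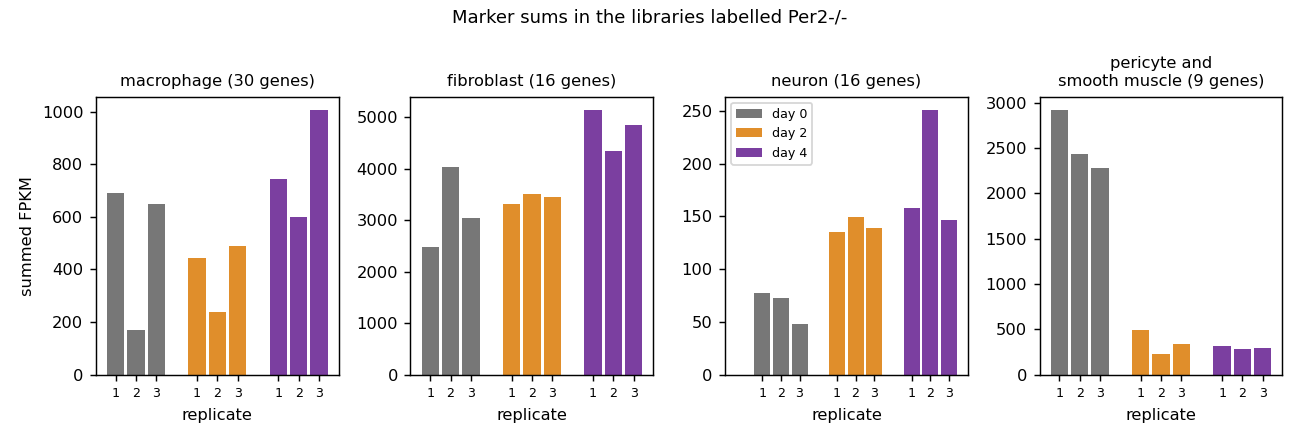
FPKM summed over the markers of 4 cell types (y axes, which differ between panels) in each of the 9 libraries labelled Per2-/-, by replicate (x axis) and day (colour). The day 4 bars of macrophages (600.4 to 1007) and fibroblasts (4348 to 5148) are above their day 2 bars (238 to 488 and 3317 to 3510.0).

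Fibroblast transcripts were not lower on day 4 than on day 2. Their 16 markers summed to 3317, 3510.0 and 3448 FPKM on day 2 and 5148, 4348 and 4847 FPKM on day 4, while limma called none of the 16 and 6 had an unadjusted p under 0.05. Over all genes, 3380 of 14932 had an unadjusted p under 0.05. Col1a1, a chain of type I collagen, was at 1449.6, 1311 and 1301 FPKM on day 2 and 1871, 1501 and 1770.0 FPKM on day 4 (0.34 ± 0.22, adjusted p = 0.38). Of 48 tested matrix genes 2 rose and 1 fell (4.17% and 2.08%, against 2.32% and 1.74% over all genes). There were 24 above without overlap, against 13.3% of all genes, and the median was 0.41. Eln, the gene of elastin, was at 25, 33.2 and 18.1 FPKM on day 2 and 159.9, 130.5 and 75.9 FPKM on day 4 (2.24 ± 0.65, adjusted p = 0.043), and Col5a3 rose by 1.19 ± 0.36; both lost their call when any of the 6 libraries was left out. Plod2, a collagen lysyl hydroxylase, fell from 34, 39.4 and 39.1 to 21, 27.8 and 21.8 FPKM (-0.68 ± 0.14). Acta2, smooth muscle actin of myofibroblasts, had dropped from 2804, 2354 and 2209.8 FPKM on day 0 and stood at 454, 201 and 314 FPKM on day 2 and 277, 238 and 257 FPKM on day 4, with overlap (-0.25 ± 0.36). None of 29 contractile genes was called, 3 had an unadjusted p under 0.05, and the median of 0.03 stood beside -2.02 from day 0 to day 2, where 27 fell.

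Secreted signals gave some of the clearest single changes. Bmp7, a bone morphogenetic protein (GRCm38 chr2:172868012-172940321, minus strand), stood at 0.325, 0.33 and 0.39 FPKM on day 0 and fell from 26.5, 23.1 and 20.9 to 5.31, 5.57 and 4.88 FPKM (-2.14 ± 0.39, adjusted p = 0.0032). Pdgfc, a platelet-derived growth factor, was at 27.1, 25.1 and 24 FPKM on day 2 and 7.96, 10 and 8.06 FPKM on day 4, with a gap between the groups wider than the range within either (-1.55 ± 0.16, adjusted p = 3.38e-05). Skil, a repressor of SMAD signaling, fell (-0.74 ± 0.17) and Fstl1 rose (0.68 ± 0.20), which leaves 3 of 39 TGF-beta and BMP genes called. Risen and fallen members were 2.56% and 5.13% of that list, against 2.32% and 1.74% over all genes. Igfbp4, a binding protein of insulin-like growth factors, was at 82.1, 97.3 and 111 FPKM on day 2 and 275, 220.1 and 338 FPKM on day 4 (1.51 ± 0.38), the only called gene of 17. It made up 5.88% of its list, against 2.32% risen over all genes. Lpl, lipoprotein lipase, and Pltp, which transfers phospholipids, rose by 1.82 ± 0.32 and 1.21 ± 0.24. They belong to a list of 12 tested genes for sterol efflux and targets of the LXR receptors. In that list 16.7% rose and none fell, against 2.32% risen over all genes. Of 17 tested basement membrane genes Nid2 rose (0.93 ± 0.27) and Lama2 fell (-1.07 ± 0.28). Each was 5.88% of this list, against 2.32% risen and 1.74% fallen over all genes. Single genes were called in further lists. These were Pi16 of 34 fibroblast factors and stroma (1.72 ± 0.48) and Ddit3 of 36 ATF4 and unfolded protein genes (0.70 ± 0.21). Slc16a3 fell among 34 hypoxia and glycolysis genes (-0.97 ± 0.25) and Chrnb1 among 26 muscle genes (-1.35 ± 0.23). Pou3f1 fell among 16 Schwann cell genes (-1.26 ± 0.31). The called share was 2.78% to 6.25% in these lists, against 4.06% over all genes.

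Of 21 tested clock genes limma called none, 6 had an unadjusted p under 0.05, voom also called none, and the median was 0.04. For scale, 3380 of all 14932 tested genes had an unadjusted p under 0.05 in limma. Per1 was at 4.58, 4.6 and 4.46 FPKM on day 2 and 5.23, 4.4 and 6.11 FPKM on day 4 (0.19 ± 0.14, adjusted p = 0.45), and Per2 changed by -0.01 ± 0.13. The activators Arntl and Clock were at 2.32, 2.7 and 2.36 and 4.07, 4.06 and 3.8 FPKM on day 2 and 2.8, 2.7 and 2.7 and 4.93, 4.15 and 4.87 FPKM on day 4 (0.15 ± 0.16 and 0.22 ± 0.10). Cry1, Cry2, Nr1d1, Nr1d2 and Dbp had changes between -0.17 and 0.14, none of which passed. Csnk1d, a kinase that phosphorylates PER proteins, had an adjusted p of 0.022 but a change of only -0.22 ± 0.06. None of 78 ribosomal protein genes, 50 genes of oxidative phosphorylation, 26 of cholesterol synthesis and 30 of the NRF2 response was called, with medians of 0.03, -0.01, -0.09 and 0.02. At an unadjusted p under 0.05 these lists held 7, 4, 1 and 5 genes, and voom called 1 gene of the NRF2 response and none of the others. In the cholesterol list, Hmgcs1 was at 46.4, 23.2 and 42.3 FPKM on day 2 and 35.5, 30.7 and 38.9 FPKM on day 4 (-0.03 ± 0.32).

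Among the 12 called genes of each direction that changed most with at least 1 FPKM on average, many were tiny RNA genes. Of the 12 largest rises 8 were genes shorter than 200 bases, with at most 15 fragments in any of the 6 libraries, and of the 12 largest falls 3 were, with at most 8 fragments. Their size depends on the added 0.1 FPKM, and they are not described further except for mt-Tv. The protein-coding rises were Mmp9, Stmn4, Atp6v0d2 and Clec3b, which encodes tetranectin and was at 0.306, 2.59 and 1.6 FPKM on day 2 and 9.5, 22.7 and 21.2 FPKM on day 4 (3.77 ± 1.08, adjusted p = 0.041; lost without any 1 library). The protein-coding falls were Bmp7, Gpr149, Col25a1, Egr1, Sstr1, Chmp4c, Chrna7, Parm1 and Pdgfc. Col25a1, a collagen with a transmembrane domain made in neurons and muscle, was at 4.78, 5.92 and 5.18 FPKM on day 2 and 0.873, 1.92 and 1.07 FPKM on day 4 after 0.0877, 0.283 and 0.274 FPKM on day 0 (-2.03 ± 0.30, adjusted p = 6.98e-04). Sstr1, a somatostatin receptor, and Chrna7, a subunit of the nicotinic acetylcholine receptor, had risen to day 2 (4.55 ± 0.23 and 3.53 ± 0.40 from day 0) and then fell by day 4 (-1.75 ± 0.23 and -1.68 ± 0.40).

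The same step was then compared with that in WT and Per1-/- cells, which asks whether the later change differed in the cultures labelled Per2-/-. In WT 242 genes rose (1.62%) and 237 fell (1.59%) from day 2 to day 4, in all 3.21% of genes. In Per1-/- 206 rose (1.38%) and 158 fell (1.06%), in all 2.44%. A gene that passes in 1 genotype and not in another is not thereby different, so the difference of the changes was tested. With WT, 1 of 14932 genes passed (0.0067%), and 194 had an unadjusted p under 0.05. With Per1-/-, 0 passed by limma, 265 had an unadjusted p under 0.05, and voom on recovered fragments also gave 0. Both unadjusted counts were under a share of 0.05 of the genes tested, and were 296 and 459 with the replicate block. The median standard error of these differences was 0.23, and a difference that did not pass is not shown to be absent.

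The values of the 3 genotypes stand side by side in the plot of 25 named genes. Scg2 changed by 3.36 ± 0.44 in the Per2-/- label, 3.49 ± 0.44 in WT and 2.77 ± 0.44 in Per1-/-. Ccnb1 changed by -1.12 ± 0.24, -1.07 ± 0.24 and -0.82 ± 0.24 in the same order. Mmp9 had the widest range of values among the plotted genes, at 4.17 ± 0.97, 2.49 ± 0.97 and 0.92 ± 0.97, but its differences of 1.68 ± 1.37 against WT and 3.25 ± 1.37 against Per1-/- did not pass. For the interferon list the median was 1.07 in the Per2-/- label, 0.76 in WT and 0.69 in Per1-/-, with 13, 5 and 3 risen members, and no member passed the test of the difference. Mitosis medians were -0.81, -0.90 and -0.77, with 30, 33 and 13 fallen members. Granins had medians of 0.77, 1.15 and 1.15, with 6, 8 and 6 risen members. Macrophage markers had medians of 1.00, 0.93 and 0.96, while their summed level on day 4 was 794 to 1362 FPKM in WT and 1560 to 2695 FPKM in Per1-/-, against 600.4 to 1007 FPKM in the Per2-/- label. WT overlapped the Per2-/- label on this sum, and Per1-/- lay above it.

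**Figure D5:**
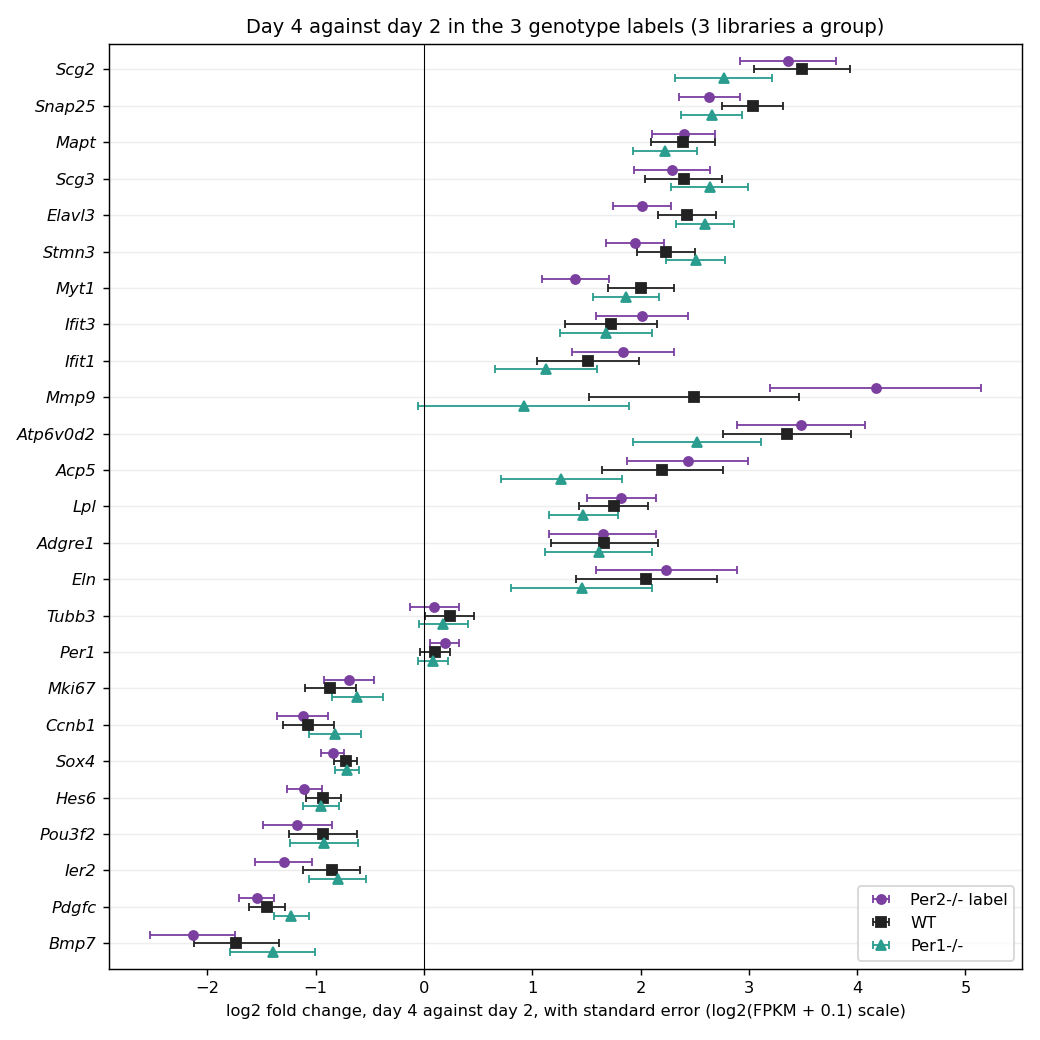
Log2 fold change of day 4 against day 2 with its standard error (x axis, log2(FPKM + 0.1) scale) for 25 named genes (y axis) in the Per2-/- label (circles), WT (squares) and Per1-/- (triangles), 3 libraries in each group. None of these genes passed the test of the difference between genotypes. Mmp9 shows the widest range, from 4.17 in the Per2-/- label to 0.92 in Per1-/-.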

How the data were processed

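Poly(A) RNA of 27 libraries was sequenced as read pairs. Per the labels and the study's methods, the authors aligned reads to mm10 with HISAT2 v2.0.5, counted them with featureCounts v1.5.0-p3 on Ensembl release 94, and deposited FPKM per gene, from which no depth is lost: all values were whole multiples of 1 fragment (tolerance 0.01), which gave the depth. No strand setting is stated, so a gene and an antisense partner cannot be told apart. From the deposited FPKM, genes with a mean of at least 0.5 over 27 libraries were fitted as log2(FPKM + 0.1) in 9 groups with limma 3.58.1 (trended, moderated variance, 18 residual degrees of freedom, Benjamini-Hochberg adjustment), in R 4.3.3. The differences between genotypes are contrasts of the same fit. The labels and the study call the replicates biological, without saying whether each came from a separate MEF preparation. The p-values measure the spread between these libraries, and the sources of that spread are not stated. Within the day 2 and day 4 groups of the Per2-/- label the libraries were further apart than sampling noise (chi-square per degree of freedom 10.1 to 36.8).

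The 27 anchor genes, up to 4 called genes per list and direction (the 2 most abundant where none was called), the 12 largest non-overlapping changes per direction with at least 1 FPKM and the genes called in a difference were named. Vgf, Pcsk2, Gal, Pam, Cpe, Nnat, Kif5a, Kif5c, Mapk8ip2, Junb, Tlr4, Bst2, Cdc20, Ube2c, Kif2c, Csnk1d and those said to be so in the text were named after their values were seen. The libraries, lists and rule were chosen with earlier results of these data known. Promoter windows (250 bases before and 50 after a start) came from RefSeq, GRCm38.p6, and were found for 10352 of 14932 genes by symbol. Some of the anchor genes are not reported here. The scripts were tested on simulated data. Alternatives were other pseudocounts and filters, TPM, size factors computed again, voom on recovered fragments, a replicate block, the 6 libraries alone, no minimum fold change and each library left out.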

Additional observations from a re-analysis of the deposited data

Results flagged for a closer look

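1 result was singled out because its change differed between genotypes by the test of the difference itself. mt-Tv, the mitochondrial valine tRNA gene of 69 bases, had 5, 2 and 7 fragments on day 2 and 0 in each library on day 4 in the Per2-/- label, while WT had 0 in each library on day 2 and 2, 2 and 1 on day 4. The difference of the changes was -8.57 ± 1.23 on the log2(FPKM + 0.1) scale (limma, adjusted p = 0.0118), and the difference from Per1-/- did not pass (-4.98 ± 1.23, adjusted p = 1.00). The size of a fitted change from groups at 0 depends on the added 0.1 FPKM and is no bound, and with 1 FPKM added the gene no longer passed. At most 7 fragments lay behind any of these values.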

How the results depend on the processing

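The number of genes called in the Per2-/- label was 606. It was 1014 with no minimum fold change, 1051 with the replicate block, 335 without both libraries numbered 2, and between 188 and 717 when each library was left out. The other settings gave 465 to 725 genes. The replicate numbers could not be shown to pair the samples of the Per2-/- label, since the correlations of same-numbered deviations on days 2 and 4 were 0.138, 0.282 and 0.035, and 1 of the 3 day 2 libraries did not correlate best with its own number. In WT and Per1-/- they were 0.127 to 0.284, and each library correlated best with its own number, a hint from the data and not the design. With the block, 22 interferon and 38 mitosis genes were called in place of 13 and 30, and Mki67 passed (adjusted p = 0.0053). Of the 107 named genes called, the direction was kept wherever the gene was tested in 16 alternatives and 30 stayed past the threshold in all of them. Without day 4 replicate 3, 63 of them lost their call, and without day 4 replicate 2, 26 did. For the difference from WT, 1 gene was called, with 0 under 1 FPKM added, genes of at least 1 FPKM, the replicate block, voom and without libraries numbered 2, 14 with all genes above 0, and 0 to 1 with each library left out. For the difference from Per1-/-, 0 genes were called under each setting except 14 with all genes above 0, with 0 also for each library left out. The cause was not tested. For genes below 0.5 FPKM on average, which were left out of the main test, depth limits what can be seen.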

Other observations

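Of further genes known from osteoclasts, a type of bone-resorbing cell, Dcstamp, Ocstamp and Tnfrsf11a stood higher on day 4 than on day 2. Nfatc1 did so in replicate 1 only. Atp6v0d2, Acp5, Ctsk and Mmp9 are described above. Ctsk also changed by 0.95 ± 0.26 in WT and 0.48 ± 0.26 in Per1-/-, and Mmp9 by 2.49 ± 0.97 and 0.92 ± 0.97. The further genes were chosen after their values were seen and were given no test as a group. Whether the cultures held osteoclasts was not tested. Oscar was looked up with them, and its values are not given here. Dcstamp, needed for the fusion of osteoclast precursors, was at 0.0379, 0.0193 and 0.0383 FPKM on day 2 and 0.808, 0.125 and 0.141 FPKM on day 4. Ocstamp went from 0.0138, 0 and 0 FPKM to 0.466, 0.170 and 0.218 FPKM. Both were too low to be tested, and their groups did not overlap. Tnfrsf11a, the receptor RANK, was at 1.10, 0.900 and 0.913 FPKM on day 2 and 2.65, 2.18 and 2.12 FPKM on day 4 (1.17 ± 0.22, adjusted p = 0.0041). Nfatc1, the main transcription factor of these cells, did not pass, and its groups overlapped. It was at 2.49, 2.45 and 2.57 FPKM on day 2 and 4.87, 2.52 and 2.62 FPKM on day 4. Day 4 replicate 1 was the highest library for Dcstamp, Ocstamp, Tnfrsf11a and Nfatc1.

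The E-box CAGCTG, a sequence of the kind that basic helix-loop-helix factors are known to bind, was searched in the same promoter windows. It was in the window of 9 of 15 splicing regulators with an entry (60.0%), 9 of 21 presynaptic genes (42.9%) and 5 of 15 granin and neuropeptide genes (33.3%), against 18.2% of all tested genes with an entry. Neuronal cytoskeleton genes held it in 5 of 23 (21.7%). These shares were given no test, and binding was not measured.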
